A study of Rattus norvegicus with 8 samples.

Results

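The unstimulated state of rat aortic smooth muscle cells was described from 3 libraries of the control cells: 1 of RNA, 1 of the histone mark H3K4me3 and 1 of H3K36me3. They are 3 of the 8 samples of the series, whose other samples are angiotensin II-treated cells and 2 input libraries, none of which enters the values below. The cells were primary cultures from thoracic aortas of Sprague-Dawley rats, grown in M199 medium with antibiotics and fetal bovine serum, and their treatment is labelled none. The labels give neither the number, age or sex of the animals nor a passage number. Serum starvation is described for the angiotensin II-treated cells alone, so resting here means without angiotensin II and leaves the serum of the control cells unknown. All loci with a usable control estimate were members, 30925 of 30937 listed, together with 28168 H3K4me3 regions over 81.5 Mb and 17425 H3K36me3 regions over 578 Mb.

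Vascular smooth muscle cells contract through actin and smooth muscle myosin, and in the vessel wall also make the collagens and elastic fibres around them. In culture they are known to shift toward a synthetic state, with more matrix production and growth and less of the contractile apparatus. H3K4me3, trimethylation of histone H3 at lysine 4, is a mark of promoters, and H3K36me3 is laid down along gene bodies during transcription elongation. Silent genes with CpG-rich promoters are known to carry H3K4me3 in many cell types.

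RNA abundance is in FPKM, fragments scaled to transcript length and library size, so levels can be compared between genes. Each value is followed in parentheses by the lower and upper bound that the authors deposited. The bounds are model errors of 1 library and hold no variation between cultures. At 10 FPKM or more the upper bound lay 1.42-fold above the estimate at the median, so neighbouring ranks below do not differ beyond their bounds. No test was possible, and shares of genes have exact Clopper-Pearson 95% intervals that cover counting error only. The depth of the libraries is unknown. Gene positions are those of the rat assembly rn4.

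The smooth muscle markers were abundant, and the label of the cells matched them. Tagln (transgelin, an actin-binding protein of smooth muscle, chromosome 8, 48902208 to 48907682) stood at 5103 FPKM (2190 to 8015). Cnn1 (calponin, which binds actin and slows the myosin ATPase, chromosome 8, 21210527 to 21221024) stood at 228 FPKM (130.0 to 326). Myh11, the smooth muscle myosin heavy chain (chromosome 10, 666657 to 826481), stood at 96.5 FPKM (52.4 to 141). The bounds of Tagln lay above those of the other markers, while those of Cnn1 and Myh11 overlapped. All 3 genes carried both marks: H3K36me3 covered 100% of the Tagln and Cnn1 loci and 97.8% of the Myh11 locus, whose coordinates another locus shares. Acta2, the smooth muscle actin gene, had no matched locus and was not analysed here. The promoter of Cnn1 is shown because it is the one marker with an entry in the RefSeq promoter table (assembly GRCr8). These are the 250 bases before its start, 5′ to 3′, and capitals would mark the CArG box, the motif bound by serum response factor, for which these letters hold no match.
Cnn1 (chr8:28908187-28908436, plus strand): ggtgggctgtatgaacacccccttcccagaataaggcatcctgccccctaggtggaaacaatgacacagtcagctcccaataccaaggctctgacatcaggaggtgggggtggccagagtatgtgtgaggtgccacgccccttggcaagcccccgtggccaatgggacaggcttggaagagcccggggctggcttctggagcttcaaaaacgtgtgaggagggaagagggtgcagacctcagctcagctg

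A small number of genes held much of the RNA. The 10 most abundant named genes held 12.1% of the summed FPKM of 14392 genes of 300 bp or more that are not small RNAs, the top 25 held 18.9%, the top 100 held 32.5% and the top 1000 held 66.8%. The ranks and sums lack 12 loci without a usable estimate. Of these 4, among them the full locus of Eln (elastin), were marked as holding too many fragments. They also lack every locus without exactly 1 matched symbol. Of 20859 loci with an accession 16015 had exactly 1 symbol. Of the 165 loci at 1000 FPKM or more, 110 of them under 300 bp, 30 had 1 symbol, so abundant transcripts can be missing here. The 25 most abundant named genes fell into a few groups by function: cytoskeleton, secreted matrix proteins, and the translation machinery. Matrix-associated genes were Ccn2 at 7534 FPKM (2725 to 12343.7), Sparc at 5600 FPKM (2139 to 9060), Spp1 at 3086 FPKM (1511 to 4661), Fstl1 at 1833 FPKM, Col1a2 at 1745 FPKM and Mfge8 at 1226 FPKM. Ccn2 (connective tissue growth factor) and Sparc (osteonectin) are matricellular proteins, and Spp1 (osteopontin) is a secreted phosphoprotein known from synthetic smooth muscle. Cytoskeletal genes were Actb at 7625 FPKM, Tagln, the intermediate filament gene Vim at 3028 FPKM, Fhl1 at 1671 FPKM, the filamin gene Flna at 1440 FPKM, the tropomyosins Tpm1 (1405 FPKM) and Tpm2 (1225 FPKM), Myl12a at 1371 FPKM, Cald1 at 1329 FPKM and Tmsb4x at 1317 FPKM. Genes of translation were Rplp0 at 2553 FPKM, Eef1a1 at 2320 FPKM, Rpl37a at 2186 FPKM, Eef2 at 2027 FPKM, Rpl32 at 1964 FPKM, Rplp1 at 1741 FPKM, Rps6 at 1647 FPKM, Rpl41 at 1503 FPKM and Rpl3 at 1387 FPKM. The listed intervals of Actb, Eef2, Rpl32, Flna and Tmsb4x are shared with other loci, so reads of neighbours could not be told apart from theirs by position. The same holds for some genes named below, among them Mylk, Myh9, Calr, Aldoa, Tpi1, Tbxa2r and Igfbp7. Ribosomal protein genes have many processed copies, so their levels are uncertain.

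**Figure D1:**
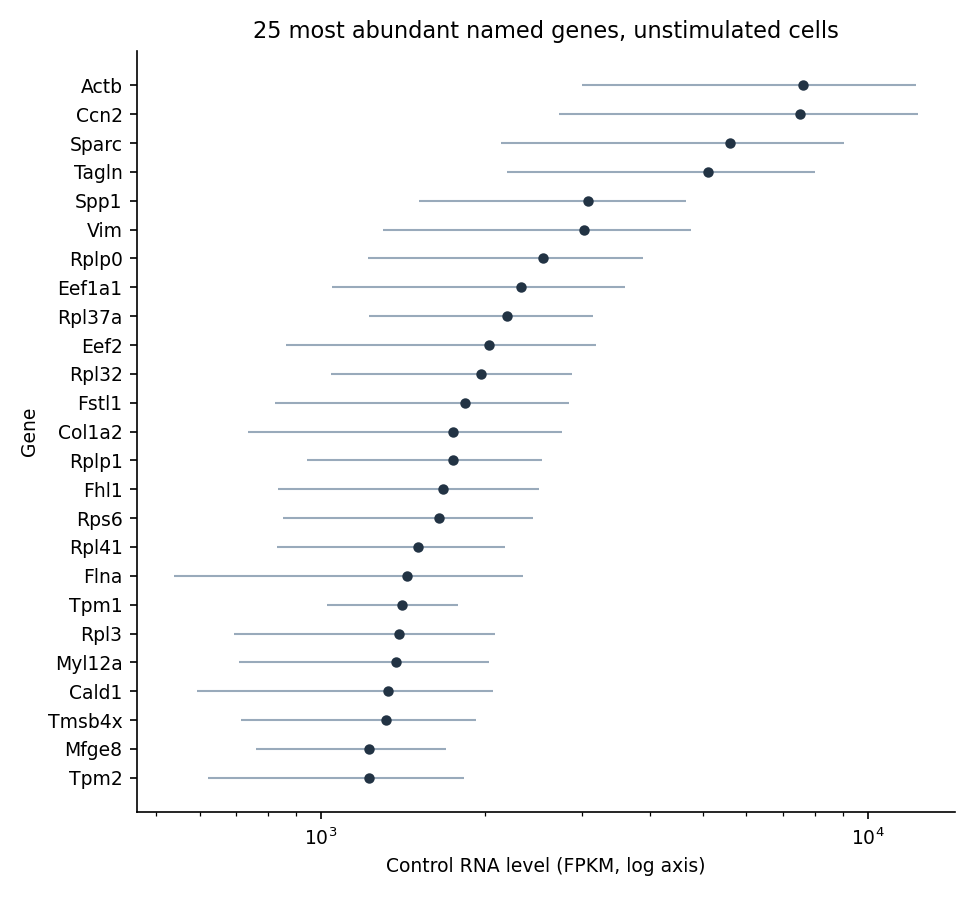
Control RNA level of the 25 most abundant named genes in FPKM on a log axis, with the bounds the authors deposited as horizontal bars (1 library). Actb, Ccn2, Sparc and Tagln stand at 5103 to 7625 FPKM, and the bounds of neighbouring genes overlap throughout.

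The promoters of the 3 most abundant genes with a table entry are printed as the 250 bases before the start (RefSeq, GRCr8), to show how unlike they are in CpG dinucleotides, given in capitals. Over 300 bases (250 before and 50 after the start) Ccn2 holds 12 CpG, Sparc 3 and Spp1 8.
Ccn2 (chr1:22624615-22624864, minus strand): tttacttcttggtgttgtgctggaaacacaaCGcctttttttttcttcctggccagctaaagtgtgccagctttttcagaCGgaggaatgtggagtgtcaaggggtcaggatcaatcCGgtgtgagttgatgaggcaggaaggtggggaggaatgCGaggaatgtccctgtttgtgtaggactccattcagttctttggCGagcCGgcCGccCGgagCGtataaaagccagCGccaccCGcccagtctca
Sparc (chr10:40038817-40039066, minus strand): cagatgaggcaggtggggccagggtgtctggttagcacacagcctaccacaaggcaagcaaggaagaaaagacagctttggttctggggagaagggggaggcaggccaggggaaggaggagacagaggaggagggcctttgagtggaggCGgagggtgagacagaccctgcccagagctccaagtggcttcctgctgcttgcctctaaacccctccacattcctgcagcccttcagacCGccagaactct
Spp1 (chr14:5619805-5620054, minus strand): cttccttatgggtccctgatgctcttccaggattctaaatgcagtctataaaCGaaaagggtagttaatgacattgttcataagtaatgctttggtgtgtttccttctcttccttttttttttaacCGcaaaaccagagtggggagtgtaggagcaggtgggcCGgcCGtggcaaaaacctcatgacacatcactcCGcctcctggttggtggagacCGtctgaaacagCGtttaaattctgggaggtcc
All 3 genes carried H3K4me3, with 4600 bp at Ccn2, 23605 bp at Sparc and 4174 bp at Spp1 inside the locus and 1 kb on either side. Of the 22 genes at 1000 FPKM or more with a promoter entry, 7 (31.8%) held TATAAA on either strand, against 11.2% of the promoters of 11741 named genes. Among the 100 most abundant genes 16 of 83 (19.3%) did, and so did 19.3% of silent genes, 5.87% of genes at 1 to 10 FPKM and 5.67% at 10 to 100 FPKM, so the share was higher at both ends of the abundance scale.

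Contractile and cytoskeletal genes were expressed almost throughout, with 30 of 31 members at 1 FPKM or more, against 55.7% of all 14762 named genes. That share of all named genes is also the background for the list counts below. Their median was 225 FPKM, beside 2.73 FPKM over all named genes. Myosin light chains Myl6 and Myl9 stood at 1006 and 681 FPKM, and vinculin (Vcl), which links actin to adhesions, at 559 FPKM. Lower in the list came Actg2, the gamma actin of enteric smooth muscle, at 176 FPKM (101 to 251), Lmod1, an actin nucleator, at 53.2 FPKM (30.5 to 75.9), and Mylk, the myosin light chain kinase, at 48.4 FPKM (27.2 to 69.7). Markers of differentiated smooth muscle were not uniformly abundant. Smtn (smoothelin) stood at 6.62 FPKM (3.74 to 9.50), and the intermediate filament gene Des (desmin, chromosome 9, 74637791 to 74645498) at 0.734 FPKM (0.287 to 1.18), the lowest of the list, with neither mark at its locus.

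Genes associated with the synthetic state were as abundant as the contractile list, with 19 of 21 members at 1 FPKM or more and a median of 251 FPKM. Spp1 and Vim led, followed by the caveolar genes Cav1 (761 FPKM, 571 to 951) and Cavin1 (596 FPKM, 320 to 871). Myh9 and Myh10, the non-muscle myosin heavy chains, stood at 397 FPKM (180 to 614) and 157 FPKM (80.9 to 233). The bounds of Myh10 overlapped those of Myh11, and those of Myh9 lay above them. Myh9 lies in an interval shared by 5 loci, so reads of its neighbours could not be told apart by position. Klf5 (0.292 FPKM), a growth-linked transcription factor, and S100a4 (0.973 FPKM) were the members under 1 FPKM.

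Regulators of smooth muscle identity had a lower median than the contractile genes. Of 20 transcription factors and coactivators 13 (65%, 40.8 to 84.6) were at 1 FPKM or more, an interval that holds the 55.7% of all named genes. Their median was 6.48 FPKM. Hey2, a Notch target, was highest at 110 FPKM (63.3 to 157), followed by Prrx1 (46.7 FPKM), Gata6 (31.8 FPKM) and Tead1 (24.4 FPKM). Myocd, the coactivator of serum response factor that drives contractile genes, stood at 8.81 FPKM (5.10 to 12.5), and Srf at 16.5 FPKM in an interval shared by 31 loci. Klf4, which opposes Myocd, stood at 4.15 FPKM (2.16 to 6.14). Tcf21 and Tbx20 were listed at 0. All 18 members with coordinates of their own carried H3K4me3, including all 6 silent ones.

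The serum response factor motif was searched in the promoter windows of the contractile list. Of 24 members with a promoter entry, 1 (4.17%) held a CArG box within 250 bases before to 50 after the start, against 1.29% of 11741 named genes. That member was Actg1, with CCATATATGG starting 90 bases before its start. None of the 24 held TATAAA, against 11.2% of all. These counts describe the letters of this window only, and Tagln and Myh11 are not among the 24.

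Most of the listed matrix genes were expressed. Of 11 collagen genes 9 (81.8%, 48.2 to 97.7) were at 1 FPKM or more, beside 55.7% of all named genes. Their median was 119 FPKM. Fibrillar collagens Col1a2 (1745 FPKM, 734 to 2756), Col3a1 (982 FPKM, 433 to 1530.3) and Col1a1 (608 FPKM, 285 to 931) stood beside Col8a1 (987 FPKM, 471 to 1503), a short-chain collagen of the vessel wall, and their bounds overlapped. The cartilage collagens Col2a1 (0.0595 FPKM) and Col9a1 (0.0580 FPKM) were silent and each carried H3K4me3. Of 29 other matrix genes 25 were at 1 FPKM or more (median 126 FPKM), with Bgn (biglycan, 1130.1 FPKM in an interval shared by 18 loci) next after Ccn2, Sparc and Spp1. Fn1 (fibronectin) followed at 826 FPKM (341 to 1312), and the microfibril gene Fbn1 stood at 212 FPKM (105 to 319) while Fbn2 stood at 0.0834 FPKM. Since the full locus of Eln had no estimate, a 1870-bp piece at 2.14 FPKM says nothing of its level. Enzymes of matrix assembly were led by the lysyl hydroxylase Plod2 (688 FPKM), the prolyl hydroxylase subunit P4hb (567 FPKM), the collagen chaperone Serpinh1 (432 FPKM) and the gelatinase Mmp2 (420 FPKM, 220 to 621). The other gelatinase, Mmp9, stood at 0.0137 FPKM (0 to 0.0410). Of 22 such genes 19 were at 1 FPKM or more. P4ha1 was listed at 0, at a locus on sequence not placed on a chromosome. The ribosomal protein gene Rpl36 and the chaperone gene Pdia6, also outside the placed sequence, were listed at 0 too. Whether P4ha1 RNA was absent was not tested.

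Genes of protein synthesis and folding were high. Of 79 cytosolic ribosomal protein genes 73 were at 1 FPKM or more, 49 of them at 100 FPKM or more, with a median of 176 FPKM. Of 21 chaperones 20 were at 1 FPKM or more (median 191 FPKM), led by P4hb, Ppib (421 FPKM), Calr (419 FPKM) and Pdia3 (415 FPKM), which act in the endoplasmic reticulum. Of 21 translation factors 19 were (median 89.7 FPKM); Tpt1 stood at 704 FPKM and Eif5a at 304 FPKM behind the elongation factors. Glycolytic genes were lower, with 19 of 20 at 1 FPKM or more and a median of 24.6 FPKM. Aldoa stood at 147 FPKM, Gapdh at 143 FPKM (82.6 to 203), Eno1 at 120 FPKM and Tpi1 at 83.5 FPKM. All 13 reference genes often used as housekeeping controls were at 1 FPKM or more, from Tbp at 7.77 FPKM to Actb, with B2m at 339 FPKM, Ywhaz at 327 FPKM and a median of 82.3 FPKM.

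Cell cycle genes were expressed in the unstimulated cells. Of 30 members 28 were at 1 FPKM or more, with a median of 15.9 FPKM. The kinase inhibitor Cdkn1a led at 154 FPKM (88.2 to 220), above Cdk4 (90.8 FPKM), Ccnd1 (85.4 FPKM), the cyclin D of G1 phase, and the replication clamp Pcna (62.1 FPKM). The mitotic genes named here were chosen after their values were seen. Cdk1 (32.1 FPKM, 18.5 to 45.6) and Ccnb1 (17.4 FPKM, 11.8 to 22.9) were above the minimum. Cdc20 stood at 15.9 FPKM, Aurka at 4.83 FPKM and Plk1 at 1.95 FPKM. Ccnb2, at 0.952 FPKM (0.356 to 1.55), was under the minimum. Mcm3, a subunit of the replicative helicase, was the lowest at 0.536 FPKM (0.207 to 0.866).

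Receptors for vasoactive ligands were expressed about as often as all named genes, and a few were abundant. Of 35 members 17 (48.6%) were at 1 FPKM or more, against 55.7% of all named genes, and 11 were silent, meaning under 0.1 FPKM, as were 35.2% of all named genes. Npr3, the natriuretic peptide clearance receptor, was highest at 179 FPKM (102 to 255), followed by the angiotensin receptor Agtr1a at 99.2 FPKM (57.5 to 141), the thrombin receptor F2r at 87.2 FPKM (50.1 to 124) and the thromboxane receptor Tbxa2r at 30.3 FPKM. The endothelin receptor Ednra, named after its value was seen, stood at 1.17 FPKM (0.549 to 1.80), and its bounds lay below those of all 4. Adra1a, Adora1, Ptger2, Bdkrb1 and Mc4r were listed at 0. The angiotensin receptor Agtr2 was also listed at 0, but its locus lies on sequence not placed on a chromosome. Rpl36 and P4ha1 on such sequence were listed at 0 as well, and whether Agtr2 RNA was absent was not tested.

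Growth factor and cytokine receptors were more evenly expressed, with 27 of 33 at 1 FPKM or more and a median of 12.4 FPKM. Pdgfrb, the platelet-derived growth factor receptor of mural cells, stood at 179 FPKM (95.4 to 263), and Pdgfra at 7.80 FPKM (4.53 to 11.1). Axl (92.2 FPKM), Bmpr2 (84.7 FPKM) and the gp130 signal transducer Il6st (79.3 FPKM) came next. The lowest was Fgfr4 at 0.0248 FPKM. Among secreted factors 26 of 37 (70.3%, 53.0 to 84.1) were at 1 FPKM or more (median 4.82 FPKM). The interval holds the 55.7% of all named genes. Highest were the insulin-like growth factor binding proteins Igfbp7 (766 FPKM) and Igfbp2 (570 FPKM). The chemokine Cxcl12 (555 FPKM, 367 to 744) and the Axl ligand Gas6 (439 FPKM, 231 to 647) followed. Igf2 was the lowest at 0.160 FPKM. Among ion channels and calcium handling genes 20 of 27 (74.1%, 53.7 to 88.9) were at 1 FPKM or more (median 5.59 FPKM). That interval also holds the 55.7% of all named genes. The cation channel Pkd2 stood at 155 FPKM and phospholamban (Pln) at 110 FPKM. Its target pump Atp2a2 stood at 97.9 FPKM (73.1 to 123) and the calcium channel subunit Cacnb3 at 31.4 FPKM. Kcna5, a voltage-gated potassium channel, was listed at 0.

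**Figure D2:**
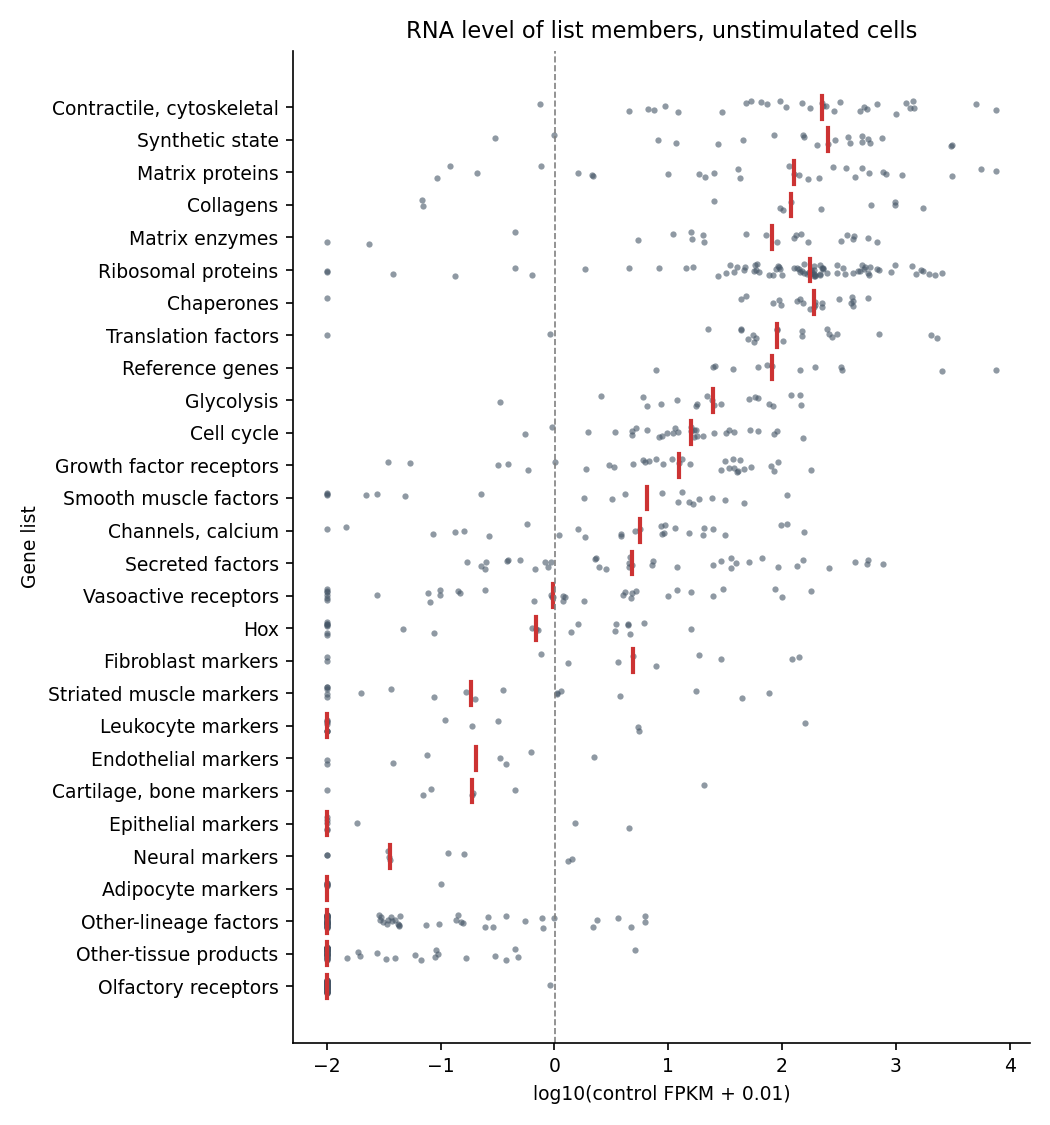
Control RNA level of every member with a locus in 28 gene lists, as log10 of FPKM plus 0.01 (1 library, each point a gene, red bars the list medians, dashed line 1 FPKM). Contractile, synthetic and matrix lists have medians of 126 to 251 FPKM, and the lists for other lineages lie mostly below 1 FPKM.

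Markers of other vessel wall and tissue cells were low with exceptions, and in bulk RNA fewer cells of a type and less RNA per cell cannot be told apart. Of 8 endothelial markers 1 was at 1 FPKM or more, Erg at 2.21 FPKM (1.42 to 3.00), while Esam, Tek, Pecam1, Nos3 and Cdh5 ranged from 0.0279 to 0.614 FPKM and Tie1 and Emcn were listed at 0. Of 13 leukocyte markers 3 were, and 2 when the longest locus stood for each symbol, among them Cd74 (5.51 FPKM) and Cd14 (5.46 FPKM). The pan-leukocyte gene Ptprc was listed at 0. None of 7 adipocyte markers reached 1 FPKM, and Pparg was the highest at 0.0907 FPKM. Adventitial fibroblast markers differed from these, with 8 of 11 (72.7%, 39.0 to 94.0) at 1 FPKM or more, beside 55.7% of all named genes. Their median was 4.93 FPKM, beside 2.73 FPKM over all named genes. Lum stood at 140 FPKM (80.6 to 199), Gsn at 123 FPKM (69.7 to 176), Igfbp6 at 29.1 FPKM and Mfap5 at 18.6 FPKM, with Pdgfra, Scara5, Dpep1 and Pi16 between 1.30 and 7.80 FPKM. Dcn (decorin), a defining fibroblast proteoglycan, stood at 0.758 FPKM (0.266 to 1.25), and Cd34 and Ly6c were listed at 0. Lum and Mfap5 also stand in the matrix list, Pdgfra in the receptor list and Igfbp6 in the list of secreted factors. The part of other cells in these levels was not tested.

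Striated muscle genes were present in part. Of 18 markers 7 (38.9%, 17.3 to 64.3) were at 1 FPKM or more, beside 55.7% of all named genes. Highest were the skeletal actin Acta1 at 76.4 FPKM (44.7 to 108) and the slow troponin C gene Tnnc1 at 44.2 FPKM (24.9 to 63.5). The others were the skeletal myosins Myh1 (17.7 FPKM), Myh2 (3.74 FPKM) and Myh4 (1.04 FPKM), Tnnt3 (1.14 FPKM) and Mb (1.04 FPKM, on a 737-bp piece). Acta1, Tnnc1, Myh1 and Myh2 carried both marks, with 93% to 100% of the locus under H3K36me3. The cardiac myosin Myh6 and the myogenic factor Myod1 were listed at 0, and Myog stood at 0.0269 FPKM. Actin and myosin genes are closely alike in sequence, so these levels are uncertain. Of the cartilage and bone markers 1 of 7 was at 1 FPKM or more, the proteoglycan Acan at 20.5 FPKM (11.9 to 29.1). Of 9 Schwann cell and neuron markers 2 were, among them Tubb3 (1.43 FPKM), and of 8 epithelial markers 2, Krt18 (1.51 FPKM) and Ocln (4.50 FPKM on a 427-bp piece).

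Patterning genes were a mixed group. Of 21 Hox genes 9 (42.9%, 21.8 to 66.0) were at 1 FPKM or more, beside 55.7% of all named genes. Hoxd13, known from distal limb and urogenital patterning, was the highest at 15.9 FPKM (9.08 to 22.8) with both marks. Hoxb3 (6.14 FPKM), Hoxa2 (4.62 FPKM) and Hoxa7 (4.46 FPKM) came next, in intervals shared with their cluster neighbours. Of 68 transcription factors of other lineages and of early patterning 6 were at 1 FPKM or more, among them Barx1 (6.28 FPKM), Hand2 (4.66 FPKM), Dlx1 (3.64 FPKM) and Emx2 (2.33 FPKM). Of 56 products of tissues outside the vessel wall 1 was, the peptide gene Npy at 5.07 FPKM (2.18 to 7.95). None of 50 olfactory and 109 vomeronasal receptors reached 1 FPKM, and 49 and 101 of them were listed at 0.

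Over all listed loci the control RNA spanned a wide range. Of 30925 loci 50.3% were at 1 FPKM or more, 799 stood between 100 and 1000 FPKM and 165 at 1000 FPKM or more. The top of this scale was taken by short loci: 110 of the 165 were under 300 bp, 116 had no accession, and the 808 loci under 300 bp held 98.6% of the summed FPKM. The highest, 89 bp long, was listed at 1.92142e+07 FPKM. The ranks above leave out loci under 300 bp and loci without exactly 1 matched symbol. Among named genes 567 (3.84%) stood at 100 FPKM or more and 5196 (35.2%) were silent.

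The marks were described at 11203 genes with 1 symbol and coordinates of their own. H3K4me3 counted when a region lay within 1 kb of the locus, and H3K36me3 when a region touched it. Over all these genes 72.2% had H3K4me3 and 63.4% had H3K36me3. Both shares were higher at expressed than at silent genes, without a further order among the most abundant classes. At genes listed at 0 FPKM 23.5% (22.0 to 25.1) had H3K4me3 and 10.2% (9.08 to 11.3) H3K36me3. At genes from 1 to 10 FPKM these shares were 93.7% (92.7 to 94.6) and 90.3% (89.1 to 91.4), and at genes of 10 to 100 FPKM they were 96.4% (95.7 to 97.0) and 98.7% (98.2 to 99.1). At 100 to 1000 FPKM they were 97.4% (95.3 to 98.7) and 98.3% (96.6 to 99.3), and of the 23 genes at 1000 FPKM or more 91.3% (72.0 to 98.9) and 100% had the marks. The mean percent of the locus under H3K36me3 was 5.15% at genes above 0 and under 0.1 FPKM, 21.9% at 0.1 to 1 FPKM, 76.3% at 1 to 10 FPKM and 94.6% at 10 to 100 FPKM. H3K4me3 was also wider at more abundant genes, with a median of 1530 bp where present at genes listed at 0, 3206 bp at 1 to 10 FPKM and 6561 bp at 1000 FPKM or more, beside median locus lengths of 5.56, 24.2 and 5.47 kb.

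**Figure D3:**
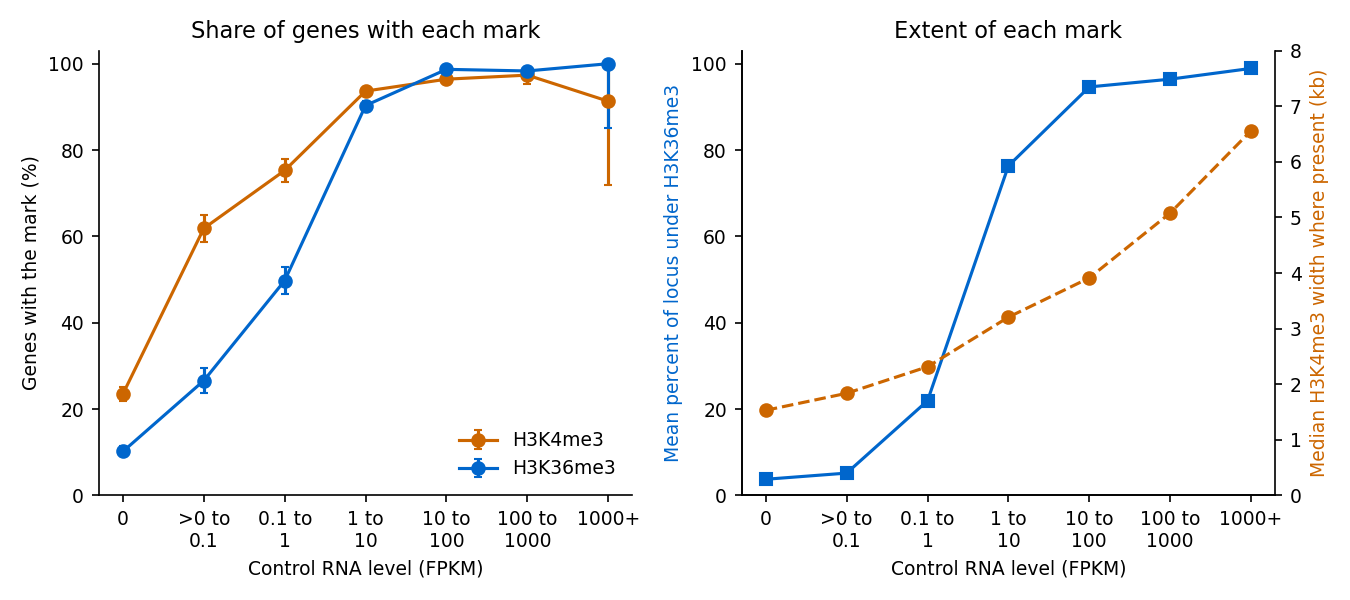
Left, percent of genes with H3K4me3 or H3K36me3 by control FPKM class, with exact 95% intervals (11203 genes, 1 library per mark). Right, mean percent of the locus under H3K36me3 (squares, left axis) and median H3K4me3 width where present (circles, right axis); cover goes from 3.72% to 98.9% and width from 1530 to 6561 bp across the classes.

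Read from the marks, genes with both had the most RNA. The 6496 genes with both marks had a median of 11.8 FPKM (interquartile range 4.49 to 29.3), and 89.5% of them were at 1 FPKM or more. With H3K36me3 alone the median was 0.348 FPKM (607 genes), with H3K4me3 alone 0.0422 FPKM (1588 genes), and with neither 0 FPKM (2512 genes). Genes with H3K4me3 alone and with H3K36me3 alone were at 1 FPKM or more in 15.7% and 39.9% of cases.

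Among genes with coordinates of their own, the most abundant carried both marks nearly without exception. Of the 100 most abundant genes of this set, from 324 to 7534 FPKM, 100 had H3K36me3 and 99 had H3K4me3, and 91 were covered by H3K36me3 over their whole length. The exception was Cald1 (caldesmon, an actin- and calmodulin-binding regulator of contraction, chromosome 4, 62087364 to 62156855). Its listed locus of 69.5 kb lay wholly under H3K36me3, and the nearest H3K4me3 region was 6.85 kb away. Vcl had the most H3K4me3 of the 100 (33842 bp over a locus of 98.7 kb), followed by Pdlim1 (24062 bp) and Sparc, the former pair named after their values were seen. Mgp (matrix Gla protein, an inhibitor of calcification) and Ccn2 had the lowest H3K36me3 cover of the 100, at 65.5% and 77.0%. Actb, Eef2, Flna, Rpl32 and Tmsb4x, in shared intervals, are outside this set, and each had H3K4me3 within 1 kb. H3K36me3 covered 47.0% to 63.8% of the intervals of Actb, Eef2 and Flna and 2.58% of that of Rpl32. No H3K36me3 region touched the 217-kb interval of Tmsb4x.

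Among the 439 genes at 100 FPKM or more, 97.0% (95.0 to 98.4) had H3K4me3 and 98.4% (96.7 to 99.4) had H3K36me3. The genes lacking a mark that are named here were chosen after their values were seen. Ssr3, Ctnnb1, Arpc3, Rab7a and Sec11a were loci of 8.68 to 18.0 kb wholly under H3K36me3, with the nearest H3K4me3 region 1.23 to 13.2 kb away. Calm2, Ybx1 and Eif3i were listed as loci of 0.994 to 1.50 kb with neither mark and H3K4me3 more than 100 kb away. Such short loci can be near-identical copies of the gene, and their levels of 124 to 172 FPKM are uncertain. Morf4l1, Prkar1a and Tspo, at loci of 1.72 to 2.26 kb, had H3K36me3 without H3K4me3. Hspa8 and Cpe had H3K4me3 without H3K36me3, and Hspa8 stood at 177 FPKM on that 2.10-kb locus and at 71.5 FPKM on its 53.2-kb locus. Below 100 FPKM, the receptors F2r (87.2 FPKM), Il6st (79.3 FPKM), Met (37.5 FPKM) and Acvr2a (6.30 FPKM) also lacked H3K4me3 within 1 kb. They lay wholly under H3K36me3, with H3K4me3 regions 2.75, 1.17, 7.80 and 41.1 kb away.

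Along genes, H3K36me3 was less frequent at the H3K4me3 end. Strand is not listed, so genes of 10 kb or more with H3K4me3 at 1 end only were read from that end; of 4668 expressed genes of that length 4041 (86.6%) qualified. H3K36me3 reached the first 10% of the length in 86.1% (85.0 to 87.1) of them and the last 10% in 94.2% (93.4 to 94.9). The mean cover was 78.5% in the first 10% and 91.4% in the last. Within genes, the last 10% had more cover than the first in 1262 of the 4041 and less in 210. In the rest, the majority, the cover was equal. The difference was largest in the lowest of the expressed classes: from 63.7% to 82.2% at 1 to 10 FPKM, from 88.6% to 97.9% at 10 to 100 FPKM and from 94.7% to 99.5% at 100 FPKM or more. In 594 silent genes with H3K4me3 at 1 end the cover was 3.07% and 3.80%. At 110 genes of 30 kb or more and 100 FPKM or more the cover was 98.4% and 98.9%. There H3K36me3 reached the first 10% in 100% of genes and the last 10% in 99.1%.

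**Figure D4:**
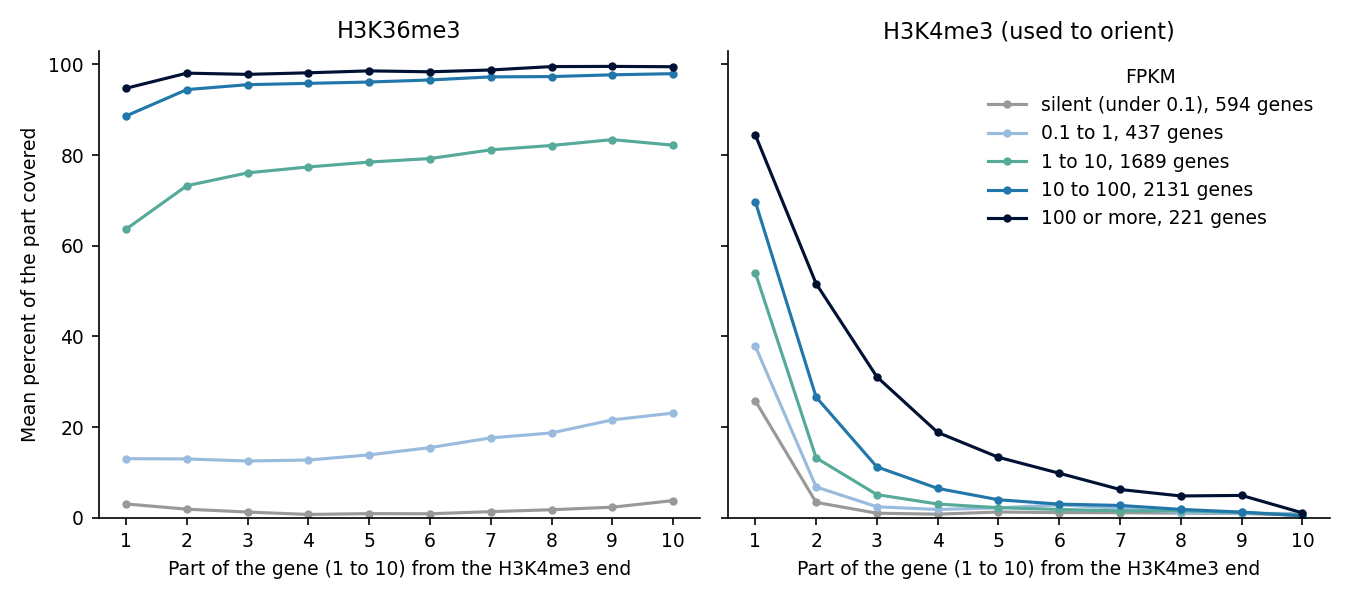
Mean percent of the gene covered by H3K36me3 (left) and H3K4me3 (right) in 10 equal parts of genes of 10 kb or more, read from the end that carries H3K4me3, by control FPKM class. H3K36me3 is lower in the first of the 10 parts than in the last in each class, and H3K4me3, which set the orientation, falls away from its end by construction.

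Silent genes carried H3K4me3 more often than H3K36me3. Of 3827 silent genes 32.8% (31.4 to 34.4) had H3K4me3, 14.2% (13.1 to 15.3) had H3K36me3, 7.73% had both and 60.7% had neither. The H3K36me3 share was 3.27% when at least 50% of the locus had to be covered. With all loci that have an accession, shared intervals included, 49.7% of silent loci had H3K4me3 and 37.0% had H3K36me3. The mark was narrower there, with a median of 1683 bp against 3672 bp at expressed genes. Within 5 kb of an expressed locus the H3K4me3 share of silent genes was 56.5% (52.0 to 61.0), and farther away it was 29.4% (27.9 to 31.0).

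Among the silent genes with the most H3K4me3, Gng7 (a G-protein gamma subunit, chromosome 7, 10203112 to 10271719) had 12866 bp of H3K4me3 at 0.0942 FPKM, and Celsr3 (an adhesion receptor of axon guidance, chromosome 8, 113882883 to 113923950) had 10785 bp at 0.0616 FPKM. Espn, Bcan, Tbx1, Shh, Lhx6, Phactr1, Hapln4, Ninj2 and Cdh22 had 6864 to 9286 bp. At the genes named here H3K36me3 covered under 10% of the locus or none, except at Tbx1, a T-box factor of pharyngeal development listed at 0 FPKM, where it covered 89.6%.

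By list, silent genes differed in how many carried H3K4me3. Of 45 silent transcription factors of other lineages 29 (64.4%, 48.8 to 78.1) did, against 32.8% of all silent genes. Examples are Pax6 (eye and forebrain, 5508 bp), Lhx1 (6172 bp), Olig2 (2907 bp) and Nkx2-5 (heart, 2754 bp), named after their values were seen. Of 44 silent products of other tissues 6 (13.6%, 5.17 to 27.4) did. Of 29 olfactory receptors none did, with an exact upper bound of 11.9%, and of 64 vomeronasal receptors 1 did. Only 4 of the 45 factors had H3K36me3.

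H3K4me3 at silent genes was more frequent where the promoter held more CpG. The measure was the ratio of observed CpG to that given by the C and G content over 300 bases, from the RefSeq table and matched by symbol for 8961 of the 11203 genes. The median ratio was 0.564 at 927 silent genes with H3K4me3, 0.212 at 1986 silent genes without, and 0.802 at expressed genes with the mark. Across bins of the ratio from under 0.2 to 0.8 and above, the share of silent genes with H3K4me3 was 10.8% (8.94 to 12.8), 23.0%, 41.3%, 70.3% and 84.2% (79.2 to 88.3). At expressed genes the same bins held 73.7% to 97.3%. H3K36me3 at silent genes ranged less, from 8.54% to 21.1%. The silent factors of other lineages had a median ratio of 0.665, the silent products of other tissues 0.260, and vomeronasal receptors 0.122. Within the factors, 15 of 19 with a ratio of 0.6 or more had H3K4me3, and 5 of 13 below it did. The mark was counted anywhere in the locus or within 1 kb of it, so it need not lie at the promoter. Of 1775 silent genes of 10 kb or more, 193 had it inside the locus and at neither end. The median locus length was 21.6 kb at silent genes with H3K4me3 and 4.96 kb at those without. The part of length in these shares was not tested.

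The promoters of the pair of silent genes with the most H3K4me3, and of a pair of CpG-poor silent genes with neither mark, show this contrast. Each line gives the 250 bases before the start, 5′ to 3′ (RefSeq, GRCr8), with CpG in capitals. Gng7 holds 12 CpG over 300 bases and Celsr3 23, while 4930433I11Rikl and Acnat2, an acyl transferase gene, hold 0. The regions are in rn4 and the sequences in GRCr8, so the mark was not placed on these bases.
Gng7 (chr7:9365139-9365388, plus strand): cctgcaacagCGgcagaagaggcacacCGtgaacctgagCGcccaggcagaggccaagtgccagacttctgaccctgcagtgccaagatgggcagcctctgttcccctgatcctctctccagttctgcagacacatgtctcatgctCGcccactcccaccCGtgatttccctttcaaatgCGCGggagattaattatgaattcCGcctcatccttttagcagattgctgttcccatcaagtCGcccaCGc
Celsr3 (chr8:118408886-118409135, plus strand): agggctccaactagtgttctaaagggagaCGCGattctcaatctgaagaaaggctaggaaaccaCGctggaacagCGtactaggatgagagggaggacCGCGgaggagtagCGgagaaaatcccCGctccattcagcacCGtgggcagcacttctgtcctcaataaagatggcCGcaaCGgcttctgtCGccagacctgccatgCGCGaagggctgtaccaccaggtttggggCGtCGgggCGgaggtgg
4930433I11Rikl (chr1:101807839-101808088, plus strand): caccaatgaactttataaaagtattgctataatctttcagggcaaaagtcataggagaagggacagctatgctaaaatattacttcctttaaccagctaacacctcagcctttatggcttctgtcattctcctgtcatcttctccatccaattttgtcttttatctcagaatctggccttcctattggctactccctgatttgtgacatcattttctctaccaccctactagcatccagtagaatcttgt
Acnat2 (chr5:68553020-68553269, minus strand): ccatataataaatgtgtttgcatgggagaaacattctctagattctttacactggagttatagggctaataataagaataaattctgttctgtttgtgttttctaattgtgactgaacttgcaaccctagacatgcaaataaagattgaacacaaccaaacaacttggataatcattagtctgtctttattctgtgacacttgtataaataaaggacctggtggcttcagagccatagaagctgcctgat

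**Figure D5:**
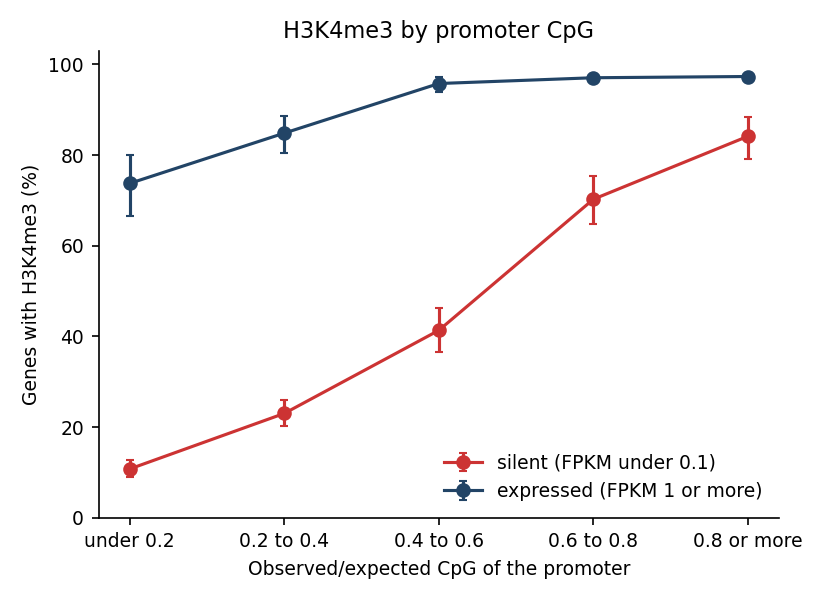
Percent of genes with H3K4me3 by observed over expected CpG of the promoter (300 bases), for silent and expressed genes, with exact 95% intervals. Among silent genes the share goes from 10.8% to 84.2%, and among expressed genes from 73.7% to 97.3%.

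Extensive H3K36me3 at silent genes was rare. Of 1775 silent genes of 10 kb or more, 7 were covered over their whole length. The 6 named by length among them were Vom2r63 (chromosome 12, 18210310 to 18239240), Vom2r1, Cd244l1, Vom2r4, Vom2r3 and Vom2r65, of which 5 are vomeronasal receptors, the pheromone receptors of the vomeronasal organ. None had H3K4me3 within 30 kb or an expressed locus within 5 kb. In the family as a whole 14 of 64 receptors had H3K36me3, against 14.2% of all silent genes. These genes belong to large families of similar copies, so regions there are uncertain.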

How the data were processed

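RNA of 1 unstimulated culture sample, H3K4me3 and H3K36me3 were measured, each in 1 library. Per the submitters' processing notes the authors used TopHat, Cufflinks and Cuffdiff for RNA, Bowtie for ChIP and the assembly rn4; versions and the region caller are not given in the sources used here. Ribosomal RNA had been removed before library construction (Ribo-minus), per the labels' protocols. Values are FPKM with bounds, deposited by the authors. Control columns were used, and 3 per-sample columns of the other condition were not. Regions carry a score deposited by the authors, used here only as a filter; they are whole multiples of 153 bp (H3K4me3) and 589 bp (H3K36me3).

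Of 20859 loci with an accession, 77.9% matched a symbol in a RefSeq table (GRCr8, names only), and 16015 matched exactly 1. The locus with the highest FPKM stood for a symbol. Of all loci, 19.4% share coordinates with another, since a listed interval can span neighbouring genes; these were left out of mark counts. Expressed means 1 FPKM or more and silent under 0.1 FPKM. Intervals come from scipy 1.17.1 (Python 3.11.15), and the overlap code was tested on simulated regions.

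The genes named are the 25 most abundant (no small RNA, 300 bp or more), the 4 highest of each list and the lowest when under 1 FPKM, all markers, other-lineage genes at 1 FPKM or more, abundant genes without a mark among the top 100, and the silent genes with the most H3K4me3 (12) or H3K36me3 cover (6); further examples in a list were chosen after their values were seen. Promoters shown follow the same ranks. A few genes that fall under this rule are left out of the text. The members and lists were chosen with earlier results of these data known. With 1 library per assay there was no test.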

Additional observations from a re-analysis of the deposited data

How the results depend on the processing

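Of 55 values recomputed over 12 results, 26 stayed within the interval of the reported value and 29 lay outside it. For shares of loci or genes this was the counting interval. For the share of summed FPKM in the top 100 it was the range given by the deposited bounds, 19.1% to 42.0%. For median CpG counts it was an interval from the ranked counts. Every share of expressed and abundant genes with a mark stayed at 89% or more. Loci at the minimum or above were 50.3%, and 68.7% with a minimum of 0.5 FPKM, 29.7% with 5 FPKM and 49.4% with own coordinates only. With all loci that have an accession, abundant genes had H3K4me3 in 93.8% and H3K36me3 in 93.4%, expressed genes in 90.5% and 93.3%, and silent genes in 49.7% and 37.0%. Expressed genes with H3K4me3 were 94.7% when regions had to touch the locus, 96.6% within 5 kb, 94.3% without the lowest score quartile, 96.4% at a minimum of 5 FPKM and 94.5% at 0.5 FPKM. Expressed genes with H3K36me3 were 89.3% at 50% cover, 89.1% without the lowest score quartile, 98.0% at 5 FPKM and 93.6% at 0.5 FPKM. Silent genes with H3K4me3 were 30.5% when touching, 39.4% within 5 kb, 27.5% without the lowest score quartile, 23.5% when listed at 0 and 29.4% when 5 kb or more from expressed loci. Silent genes with H3K36me3 were 3.27% at 50% cover, 12.8% without the lowest score quartile, 10.2% when listed at 0 and 10.3% when 5 kb or more from expressed loci. In genes of 30 kb or more H3K36me3 reached the first 10% in 87.8% and the last in 93.2%. For shares that depend on the set of loci the cause was not tested. The alternatives longest locus per symbol, small RNAs left out and short loci included were chosen after seeing the data. No paired analysis was possible because there was a single library per assay in the control state. Depth is not given, so weak loci have only the deposited bounds.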
